A study of Mus musculus with 8 samples.

Results

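The nuclear-encoded subunits of the respiratory chain and of ATP synthase were examined in whole mouse embryos. Members were defined by symbol, with -ps pseudogenes left out, and the set was chosen with earlier results of these data known. Genes named Nduf stand for complex I, Sdha to Sdhd for complex II and Uqcr for complex III. Cox4 to Cox8 stand for complex IV and Atp5 for complex V. The deposited table holds 41709 symbols. Among them 86 matched, and 82 passed the level filter, a TPM of 1 or more in no fewer than 4 of 8 embryos, as did 13596 genes in all. TPM is a read number divided by gene length and scaled to the same total in each library. The 82 members fall into 38 of complex I, 4 of complex II, 8 of complex III, 15 of complex IV and 17 of complex V. The 4 that did not pass were Cox7b2, Cox8b, Cox8c and Atp5o_1, the first of a pair of rows for Atp5o.

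Respiratory complexes I, III and IV pump protons across the inner mitochondrial membrane as electrons pass from NADH to oxygen, complex II feeds in electrons from succinate, and complex V uses the proton gradient to make ATP. Every complex except complex II combines subunits encoded in the nucleus with a few encoded in the mitochondrial DNA, so that transcripts of both genomes are needed for assembly. Embryos at this stage draw on glycolysis and, increasingly, on respiration as the heart begins to beat and the circulation forms.

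Each of the 8 samples was 1 embryo at embryonic day 9.5. In 4 of them both alleles of Smo carried the amino acid substitution K399A (mutant), and 4 had wild-type Smo only (WT). Smo encodes Smoothened, the membrane protein that relays the Hedgehog signal, and the study asked how embryos with the substituted receptor differ in expression. All embryos came from crosses of heterozygous parents over several litters, and the litter of each embryo is not given in the labels. TPM per gene does not show the substitution, so the genotype labels could not be checked against it. Whole embryos were sequenced, so that fewer cells of a type and less RNA per cell cannot be told apart.

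Between 59.05 and 60.42 M reads per library (M, mega) were recovered from the steps between TPM values for genes with a known length, and 73 of the 78 members with such reads had at least 1000 in every library. The libraries did not stand alike: the median over all genes tested lay 0.12 and 0.098 below the WT mean on the log2(TPM + 1) scale in mutants 3 and 4, against 0.015 and 0.042 above it in mutants 1 and 2 and deviations of -0.013 to 0.037 in the WT embryos. Summed TPM of a list of 21 yolk sac endoderm genes, none of them at 0 in all libraries and 20 of them tested, was 191.7 to 1472 in mutants and 37.7 to 304.5 in WT, and all 20 had a positive log2 fold change. A list of 12 trophoblast and decidua genes, of which 6 were tested, summed to 122.9 to 414.8 TPM in mutants and 69.2 to 114.4 TPM in WT. Markers of the tissues a whole embryo should hold were present, with 20 of 21 heart muscle, 17 of 17 neuronal and 13 of 14 primitive red cell genes tested. Neuronal genes summed to 246.7 to 380.9 TPM in mutants and 328.4 to 614.5 TPM in WT, and red cell genes to 24767 to 64032 TPM in mutants and 17668 to 59864 TPM in WT. The part of these tissue and library differences in the results that follow was not tested.

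Across the 82 members the 2 genotypes were close to each other, and no member passed the test. Limma on log2(TPM + 1) called 0 members and 0 of all 13596 genes (0%) once p-values were adjusted (threshold 0.05), and the lowest adjusted p of a member was 0.284. Without adjustment 1842 genes had a p under 0.05. Of the 82, 63 (76.8%) had a negative log2 fold change, mutant over WT, where 62.3% of all genes did. The median log2 fold change of the members was -0.059, against -0.045 over all genes. The log2 fold change lay within 0.2 of 0 for 74 of the 82 members (90.2%), against 75% of all genes and 88.5% of the 3274 genes with a mean of at least 50 TPM. At an unadjusted p under 0.05 there were 9 members lower (11%) and 1 higher (1.22%) in mutants, where 8% and 5.55% of all genes were. Among the genes with a mean of at least 50 TPM the shares were 11.9% lower and 5.8% higher. The 9 became 1 without WT 1, 5 without WT 3 or WT 4, 4 without mutant 2 or mutant 4, and 25 without mutant 1, and the 1 became 0 without any of the WT embryos or mutant 4. These counts and medians also follow the scaling: when libraries were brought to a common level by median-ratio scaling, 33 members were positive in place of 19, the members' median was -0.015, and 0 members were lower at an unadjusted p under 0.05.

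**Figure D1:**
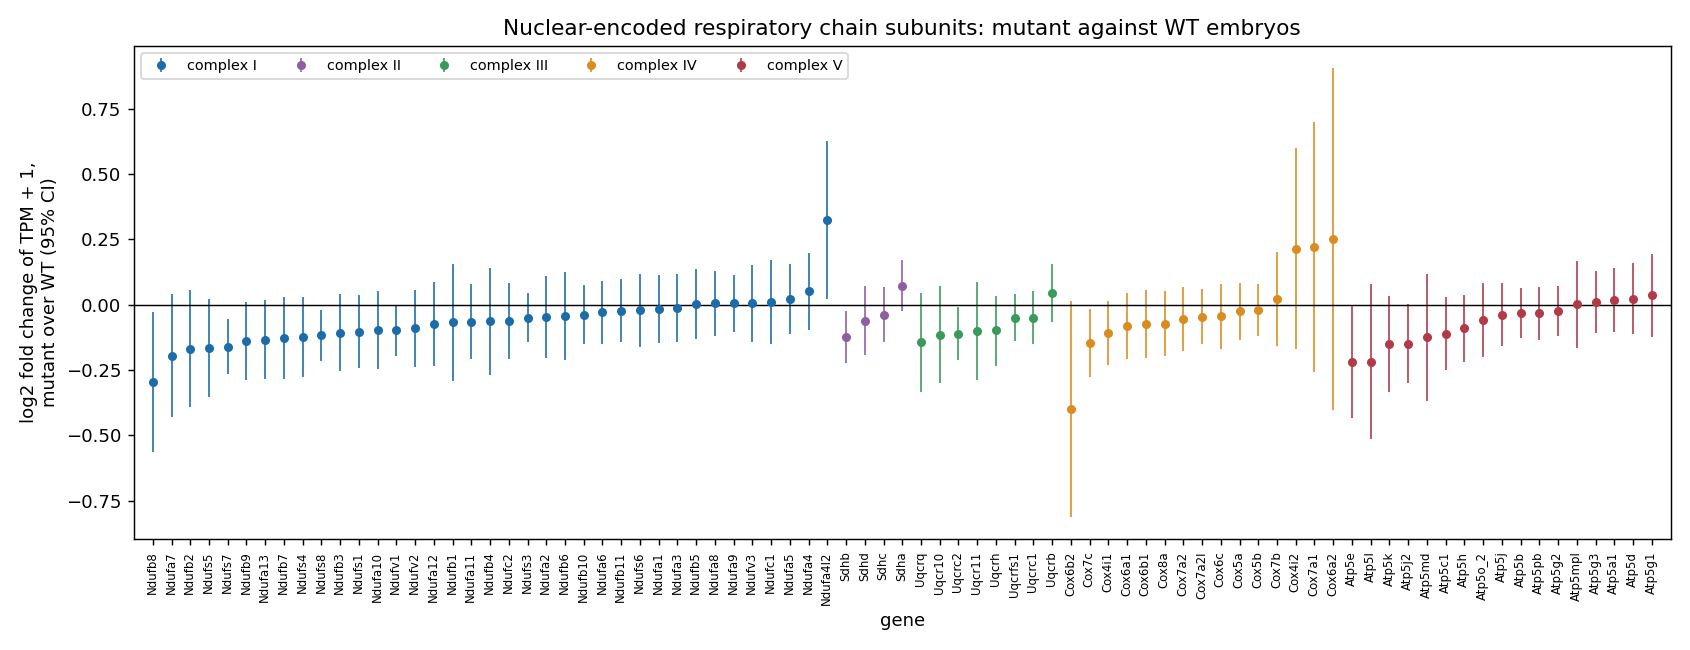
Log2 fold change of TPM + 1, mutant over WT, for the genes tested except 1 not shown, with points for limma estimates and bars for 95% confidence intervals, ordered within complexes I to V. Most points lie slightly below 0 and within 0.2 of it; the widest intervals belong to the weakly expressed Cox6a2, Cox6b2, Cox7a1 and Cox4i2.

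Levels of the members spanned a wide range. Averaged over the 8 embryos, TPM ran from 3.90 for Ndufa4l2 to 1098 for Atp5b, with a median of 167.9 TPM, and 71 of 82 members had a mean of at least 50 TPM, a level reached by 24.1% of all genes tested. The spread between embryos of a genotype was small. The median within-group SD of log2(TPM + 1) was 0.087 over the members, against 0.139 over all genes and 0.092 over genes of at least 50 TPM. It was larger among mutants (0.1) than among WT embryos (0.064), as it was over all genes (0.166 among mutants and 0.085 among WT).

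What the members have in common ahead of their start sites was looked up in RefSeq promoters (build GRCm38.p6), of which 67 of the 82 members had at least 1, with 72 promoters in all. NRF1 is a transcription factor known to activate nuclear respiratory genes, and its core GCGCATGC, on either strand, was found in the 250 bases before the start in 8 of 72 member promoters (11.1%), against 2.26% of all 32851 promoters and 4.14% of the 13464 promoters of genes tested. CCAAT, bound by NF-Y, was in 41.7% of member promoters, 33.8% of all promoters and 35.6% of those of genes tested. The ETS letters CCGGAAGT, as bound by GABP, were in 3 member promoters (4.17%), against 2.88% of all promoters and 5.59% of those of genes tested, so that the members lay between these backgrounds. The YY1 letters AAGATGGCG were in 1 member promoter (1.39%), against 0.606% of all and 1.12% of those of genes tested. The hypoxia-response letters ACGTGC were in 2.78% of member promoters, 4.92% of all and 6.8% of those of genes tested, and a MEF2 motif in 1.39%, 3.2% and 2.68% of the same sets. Hits of different motifs overlapped in 0 member promoters. In 59 of the 72 member promoters the first 20 transcribed bases lay in a GENCODE transcript of the gene. Promoters differ in base composition, which these shares do not take into account, and a match of letters is a description, not a binding site.

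Promoters of 4 members are given because they contrast subunits whose values follow: Sdhb had the smallest p of complex II, and Cox7a1 is the heart and muscle isoform of Cox7a2, shown with the ubiquitous Cox6a1, which held overlapping NRF1 cores on both strands. Each is the 250 bases before the RefSeq start, 5′ to 3′ on the gene's strand, with capitals marking the NRF1 core and CCAAT on either strand. GENCODE places the start of each of these genes further upstream.
Sdhb (chr4:140961021-140961270, plus strand): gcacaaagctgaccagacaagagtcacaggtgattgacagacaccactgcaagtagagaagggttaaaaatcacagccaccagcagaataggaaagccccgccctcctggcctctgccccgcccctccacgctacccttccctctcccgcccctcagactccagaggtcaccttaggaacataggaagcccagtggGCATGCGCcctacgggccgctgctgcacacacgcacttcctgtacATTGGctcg
Cox6a1 (chr5:115348959-115349208, minus strand): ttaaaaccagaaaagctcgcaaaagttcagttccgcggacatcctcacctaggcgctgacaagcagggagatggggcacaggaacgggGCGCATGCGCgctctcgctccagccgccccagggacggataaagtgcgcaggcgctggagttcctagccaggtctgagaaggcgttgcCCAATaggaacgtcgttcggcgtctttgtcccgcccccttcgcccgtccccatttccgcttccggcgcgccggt
Cox7a1 (chr7:30183921-30184170, plus strand): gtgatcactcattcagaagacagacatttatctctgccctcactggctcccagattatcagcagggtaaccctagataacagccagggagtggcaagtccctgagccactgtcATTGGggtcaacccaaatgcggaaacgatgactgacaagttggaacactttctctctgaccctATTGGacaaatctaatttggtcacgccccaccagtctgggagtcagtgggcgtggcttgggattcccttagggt
Cox7a2 (chr9:79759854-79760103, minus strand): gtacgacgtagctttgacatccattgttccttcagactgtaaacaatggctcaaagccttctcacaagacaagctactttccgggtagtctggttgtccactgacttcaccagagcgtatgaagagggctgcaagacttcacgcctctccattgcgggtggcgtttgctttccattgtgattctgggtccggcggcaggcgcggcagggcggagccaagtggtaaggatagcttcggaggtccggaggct
The Sdhb promoter held the NRF1 core 54 bases and CCAAT, on the reverse strand, 9 bases before the RefSeq start. Both lie downstream of the GENCODE start of Sdhb (140961203), and so within the gene as GENCODE places it. In Cox6a1 the NRF1 cores began 162 and 160 bases before the start, and CCAAT 74 bases before it. Cox7a1 had CCAAT at 137 and 74 bases before the start and no NRF1 core, and the window of Cox7a2 held neither set of letters.

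Complex I oxidises NADH. Its nuclear-encoded core subunits carry the flavin, the iron-sulphur clusters and the ubiquinone site, and around it sit accessory subunits with structural roles. The 6 core subunits described here all had a negative log2 fold change, with a median of -0.10 and a range of -0.16 to -0.050, and in 3 of them every mutant lay below every WT embryo. Among the 29 accessory subunits, where Ndufa4 and Ndufa4l2 are not counted, 23 were negative with a median of -0.064, and in 0 of them did the groups separate. Over all genes tested 3.82% were separated in this direction, as were 196 of the 3274 genes with a mean of at least 50 TPM. Of the 6, Ndufs7 was named for its small p and the others were added after their values were seen. The 3 separated genes are therefore no estimate of a share among core subunits. Sorting the members into core and accessory subunits follows the known structure, but it was written down after results of the fit had been seen.

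Ndufs7 (chromosome 10, 80249121 to 80256794, GRCm38), the subunit that holds the last iron-sulphur cluster before ubiquinone, was at 85.3, 81.9, 84.2 and 87.7 TPM in mutants 1 to 4, against 98.3, 98.5, 91.7 and 91.4 TPM in WT 1 to 4. Every mutant was below the lowest WT embryo, by a gap smaller than the range within WT. Its log2 fold change was -0.16 ± 0.047 (SE, n = 4 each; limma adjusted p = 0.284; two-sided exact permutation p = 0.0286, the smallest that 4 against 4 allow).

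Ndufs8 (chromosome 19, 3908863 to 3912774), which carries a pair of iron-sulphur clusters, was at 111.0, 103.1, 111.1 and 109.6 TPM in mutants 1 to 4, against 121.7, 117.0, 117.1 and 115.9 TPM in WT 1 to 4. Ndufv1 (chromosome 19, 4007384 to 4012806), the flavin-binding subunit where NADH is oxidised, was at 136.0, 126.5, 136.6 and 135.5 TPM in mutants, against 147.7, 144.0, 139.6 and 141.2 TPM in WT. In both genes the groups did not overlap and mutant 2 was the lowest embryo. Their log2 fold changes were -0.12 ± 0.043 and -0.098 ± 0.044 (limma adjusted p = 0.324 and 0.368).

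Ndufs1, Ndufv2 and Ndufs3 overlapped between the groups. Ndufs1, the largest iron-sulphur subunit, averaged 44.9 ± 3.49 TPM in mutants and 48.2 ± 1.00 TPM in WT (SD, n = 4 each), with mutants 3 and 4 at 42.3 and 41.5 TPM and mutants 1 and 2 at 47.3 and 48.4 TPM. Ndufv2 averaged 160.7 ± 12.5 TPM in mutants and 171.0 ± 9.78 TPM in WT, and Ndufs3 averaged 110.9 ± 3.94 TPM in mutants and 114.8 ± 1.45 TPM in WT. Which core subunits separated depended on the scaling. With median-ratio scaling the groups separated in Ndufs1 and overlapped in Ndufs7, Ndufs8 and Ndufv1, and with the mitochondrially encoded genes removed before scaling they separated in Ndufs7, Ndufs8 and Ndufv1 and overlapped in Ndufs1.

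**Figure D2:**
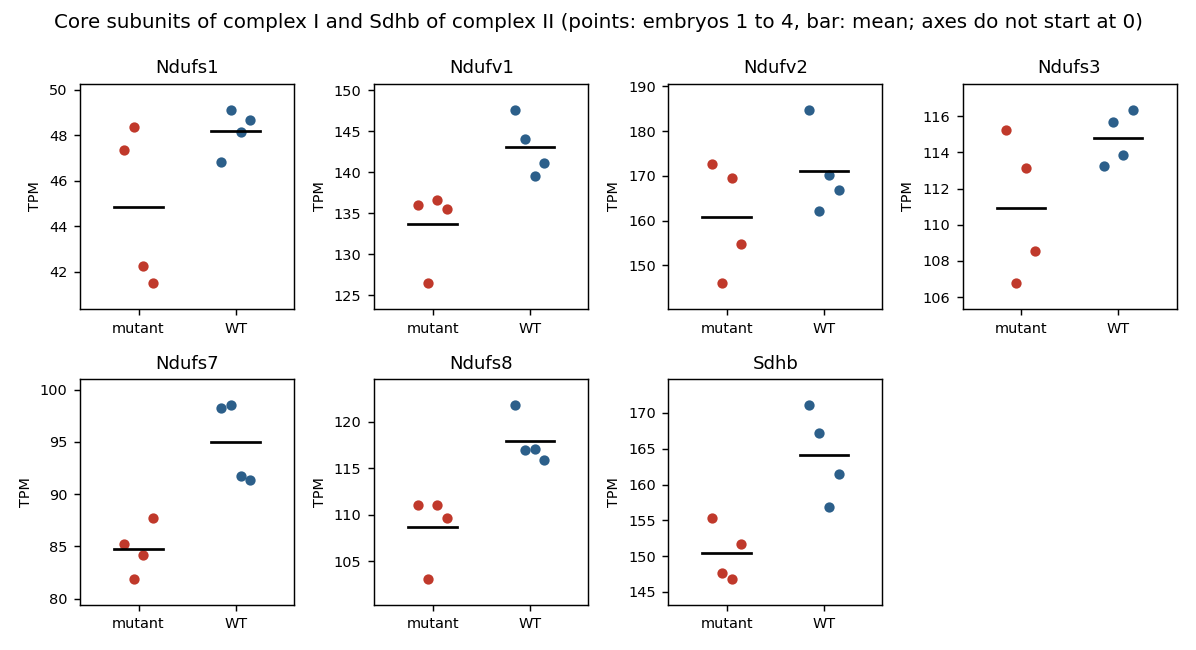
TPM of 6 nuclear-encoded core subunits of complex I and of Sdhb, with 1 point per embryo, mutants left and WT right, and bars for group means; the axes do not start at 0. Mutant points lie below all WT points in Ndufv1, Ndufs7, Ndufs8 and Sdhb, while Ndufs1, Ndufv2 and Ndufs3 overlap.

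Among the accessory subunits the most abundant was Ndufa2, at 314.3 to 389.2 TPM in mutants and 353.4 to 398.6 TPM in WT. Ndufb8 (chromosome 19, 44548572 to 44555440), a subunit of the membrane arm, had the most negative estimate of complex I. It was at 165.1, 117.5, 132.7 and 117.4 TPM in mutants 1 to 4, against 190.2, 146.8, 164.5 and 150.9 TPM in WT 1 to 4. Mutant 1 lay inside the WT range and the other mutants below it, with a log2 fold change of -0.30 ± 0.12 (limma adjusted p = 0.340). Its exons share 134 bases with the overlapping gene Gm20538 on the same strand, so part of its reads may belong to that gene.

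Complex II is the only respiratory complex made of nuclear-encoded subunits alone. Sdhb (chromosome 4, 140961203 to 140979193), its iron-sulphur subunit, was at 155.3, 147.6, 146.8 and 151.7 TPM in mutants 1 to 4, against 171.1, 167.2, 156.8 and 161.4 TPM in WT 1 to 4. The groups did not overlap, with mutant 1 just below WT 3, and the log2 fold change was -0.125 ± 0.044 (limma adjusted p = 0.317; two-sided exact permutation p = 0.0286). With median-ratio scaling, and with the mitochondrially encoded genes removed, the groups overlapped. Sdha, the flavoprotein that oxidises succinate, had an estimate of the opposite sign. It was at 190.1, 193.5, 202.2 and 203.5 TPM in mutants, against 182.7, 196.4, 184.3 and 186.9 TPM in WT, with a log2 fold change of 0.073 ± 0.044 (limma adjusted p = 0.455). The most abundant member, the membrane anchor Sdhd, averaged 427.1 ± 30.1 TPM in mutants and 444.9 ± 18.3 TPM in WT. The other anchor, Sdhc, averaged 117.5 ± 3.80 TPM in mutants and 120.8 ± 4.96 TPM in WT.

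Complex III passes electrons from ubiquinol to cytochrome c. Of its 8 members 7 were negative, with a median log2 fold change of -0.10. Uqcrc2 (chromosome 7, 120635176 to 120659524), a core protein of the matrix side, was at 252.7, 226.7, 234.1 and 227.9 TPM in mutants 1 to 4, against 256.1, 252.1, 253.2 and 254.3 TPM in WT 1 to 4. Mutant 1 lay within the narrow WT range and the other mutants below it (log2 fold change -0.11 ± 0.045, limma adjusted p = 0.344). Of the 2552 merged exon bases of Uqcrc2, 504 are shared with Pdzd9 on the opposite strand. Whether counting used strand is not given, so part of its reads may belong to that gene. The Rieske iron-sulphur protein Uqcrfs1 averaged 264.8 ± 7.74 TPM in mutants and 274.2 ± 4.90 TPM in WT, and overlapped. Uqcr10, the most abundant, averaged 407.9 ± 47.8 TPM in mutants and 440.1 ± 26.3 TPM in WT. Uqcrq averaged 129.96 ± 11.4 TPM in mutants and 143.9 ± 14.9 TPM in WT, and Uqcrb, the 1 positive member, averaged 302.9 ± 8.50 TPM in mutants and 293.8 ± 15.8 TPM in WT (limma adjusted p = 0.675).

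Complex IV reduces oxygen, and its nuclear-encoded subunits surround a catalytic core encoded in the mitochondrial DNA. Of 15 members 11 were negative, with a median log2 fold change of -0.046. Cox8a was the most abundant, at 812.5 to 925.6 TPM in mutants and 886.7 to 980.0 TPM in WT. Cox7c (chromosome 13, 86044816 to 86046904), a small membrane subunit, was at 495.4, 451.0, 440.3 and 425.5 TPM in mutants 1 to 4, against 532.8, 475.2, 499.9 and 498.8 TPM in WT 1 to 4. Mutant 1 lay within the WT range and the other mutants below it, with a log2 fold change of -0.15 ± 0.058 (limma adjusted p = 0.333). Cox7a2l, which joins complexes III and IV in supercomplexes, averaged 290.1 ± 14.4 TPM in mutants and 299.3 ± 6.99 TPM in WT.

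Several complex IV subunits come as a ubiquitous form and a form restricted to certain tissues, and the same holds for Ndufa4, a complex IV subunit despite its name, and its paralog Ndufa4l2. By mean TPM over the 8 embryos the ubiquitous form was 27.1 times (Cox4i1 over Cox4i2) to 85.1 times (Ndufa4 over Ndufa4l2) as abundant in the 5 detected pairs, and its groups overlapped in each. Ndufa4l2 (chromosome 10, 127514967 to 127517154), known as a hypoxia-inducible gene, was at 4.10, 4.12, 3.66 and 6.04 TPM in mutants 1 to 4, against 3.40, 3.30, 3.49 and 3.11 TPM in WT 1 to 4. It was the only member whose mutants all lay above WT, where 3.63% of all genes did so, and it stayed separated with median-ratio scaling and with the mitochondrially encoded genes removed. Its log2 fold change was 0.32 ± 0.135 (limma adjusted p = 0.348; two-sided exact permutation p = 0.0286), and its values rested on 65 to 126 reads per library. Its exons share 32 bases with Shmt2 on the opposite strand, and whether counting used strand is not given in the sources used here. Ndufa4 averaged 338.4 ± 27.6 TPM in mutants and 326.1 ± 18.7 TPM in WT.

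Cox4i2, the lung-enriched and oxygen-sensitive partner of Cox4i1, was at 25.5, 19.3, 20.7 and 23.3 TPM in mutants 1 to 4, against 25.4, 14.7, 22.2 and 15.4 TPM in WT 1 to 4. The highest mutant and the highest WT embryo were alike, 2 WT embryos were the lowest, and Cox4i1 averaged 542.1 ± 27.5 TPM in mutants and 584.7 ± 29.7 TPM in WT. In a list of 18 genes of the hypoxia response 16 were tested, with 9 positive, 7 negative and a median log2 fold change of 0.062. At an unadjusted p under 0.05, 6 (37.5%) were higher and 0 lower, where 5.55% and 8% of all genes were. The genes of the list with the smallest p were Adm, which encodes adrenomedullin, at 4.66 ± 1.36 TPM in mutants and 1.94 ± 0.415 TPM in WT, P4ha1, a collagen prolyl hydroxylase, and Slc2a1, a glucose transporter. The 7 negative genes included Vegfa, at 31.6 ± 8.44 TPM in mutants and 37.9 ± 1.65 TPM in WT.

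The heart and muscle isoforms that passed the level filter, Cox6a2 and Cox7a1, were led by mutant 1. Cox6a2 was at 25.7, 11.2, 16.2 and 10.5 TPM in mutants 1 to 4, against 12.3, 15.8, 7.73 and 15.4 TPM in WT 1 to 4. Cox7a1 was at 17.4, 10.9, 10.7 and 7.26 TPM in mutants 1 to 4, against 11.3, 8.25, 9.33 and 8.72 TPM in WT 1 to 4. In both genes mutant 1 was the highest embryo and the other mutants overlapped with WT (limma adjusted p = 0.690 for Cox6a2 and 0.630 for Cox7a1). Summed TPM of 21 heart muscle genes was 5070, 2525, 3169 and 2813 in mutants 1 to 4, against 2218, 2497, 1804 and 2368 in WT 1 to 4. The same embryo was highest, but mutant 1 was also the highest embryo for 27.0% of all genes tested, the largest share of any embryo. In this sum every mutant lay above every WT embryo, unlike in Cox6a2 and Cox7a1. Of 20 tested genes of that list 17 were positive, among them Myh6, the atrial myosin heavy chain, at 138.8 ± 36.7 TPM in mutants and 65.0 ± 12.6 TPM in WT. The 3 negative genes included Nppb, at 16.3 ± 10.3 TPM in mutants and 21.9 ± 5.56 TPM in WT. The part of heart content in Cox6a2 and Cox7a1 was not tested. The ubiquitous Cox6a1 averaged 588.9 ± 33.3 TPM in mutants and 623.3 ± 30.3 TPM in WT, and Cox7a2 averaged 403.8 ± 21.3 TPM in mutants and 419.8 ± 21.03 TPM in WT.

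Cox6b2, known as the testis form of Cox6b1, was at 15.9, 13.1, 12.7 and 7.58 TPM in mutants 1 to 4, against 14.1, 17.0, 16.4 and 16.8 TPM in WT 1 to 4. Mutant 4 was the lowest embryo, and the log2 fold change of -0.40 ± 0.18 was the most negative of all members (limma adjusted p = 0.379). Cox6b1 averaged 684.3 ± 48.2 TPM in mutants and 719.9 ± 24.99 TPM in WT, and Cox7b averaged 316.0 ± 32.9 TPM in mutants and 310.3 ± 20.6 TPM in WT. Of the isoforms that did not pass the level filter, Cox8b of heart and muscle was at 0 to 1.19 TPM in mutants and 0 to 1.33 TPM in WT. Of the testis forms, Cox7b2 reached at most 0.0987 TPM and Cox8c was at 0 in every library.

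**Figure D3:**
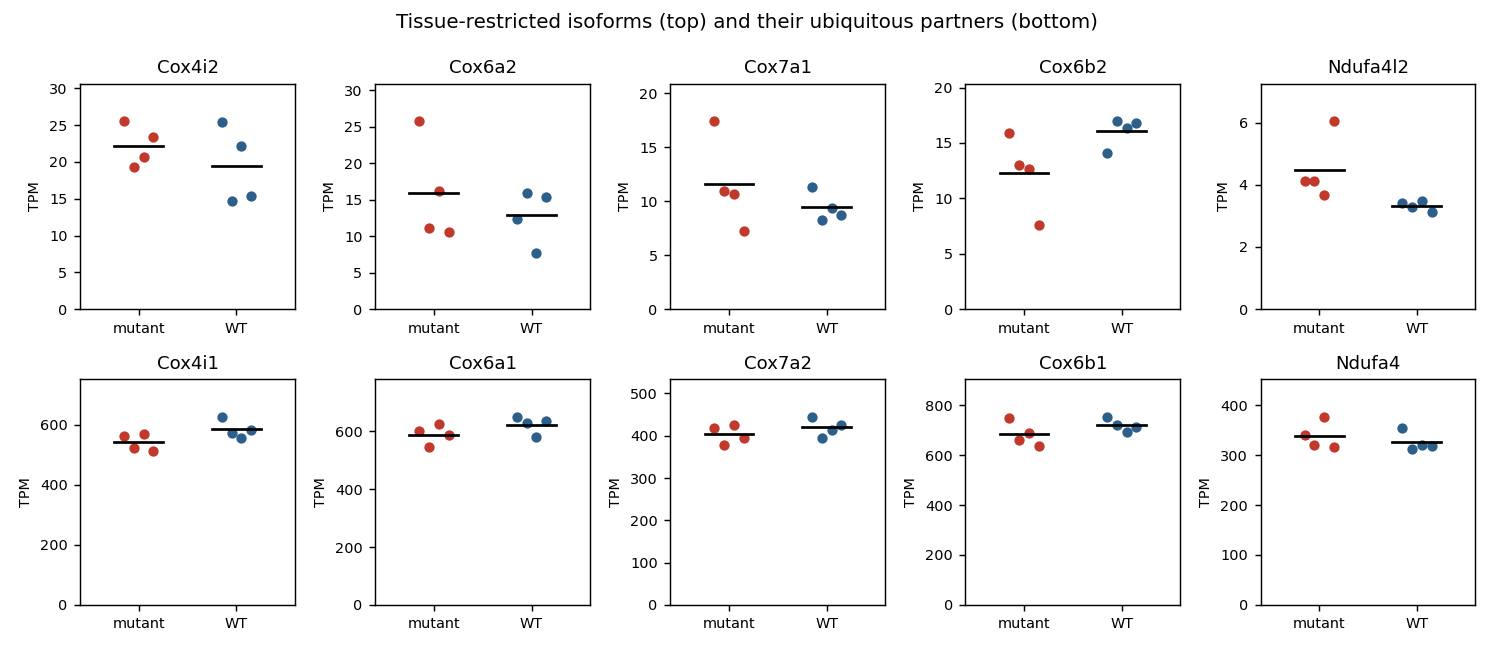
TPM of 5 tissue-restricted subunit isoforms (top) and of the ubiquitous partner of each (bottom), with 1 point per embryo, mutants left and WT right, and bars for group means. All mutants lie above all WT embryos in Ndufa4l2 only, and mutant 1 is the highest embryo for Cox6a2 (25.7 TPM) and Cox7a1 (17.4 TPM).

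Complex V, the ATP synthase, has a catalytic F1 head, a peripheral stalk, and a membrane part with a ring of c subunits. Of 17 members 12 were negative, with a median log2 fold change of -0.039. In the head, the catalytic subunit Atp5b (chromosome 10, 128083273 to 128090391), the most abundant member of all, was at 1087, 1041, 1122 and 1092 TPM in mutants 1 to 4, against 1111, 1121, 1107 and 1102 TPM in WT 1 to 4. Its log2 fold change of -0.033 had a 95% confidence interval of -0.13 to 0.062, and with median-ratio scaling it was 0.012. Atp5a1, the other large head subunit, averaged 1029.7 ± 65.5 TPM in mutants and 1015.5 ± 21.9 TPM in WT, and Atp5d of the central stalk averaged 310.2 ± 25.3 TPM in mutants and 304.5 ± 9.27 TPM in WT. The small Atp5e, also of the central stalk, was at 191.7, 155.3, 187.0 and 149.9 TPM in mutants 1 to 4, against 221.4, 178.9, 191.3 and 203.3 TPM in WT 1 to 4. Mutants 2 and 4 lay below the WT range and mutants 1 and 3 inside it (log2 fold change -0.22 ± 0.095, limma adjusted p = 0.360).

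The c ring is built from a single mature protein that 3 genes encode. Their summed level was 1061, 980.4, 1086 and 1081 TPM in mutants 1 to 4, against 1094, 1047, 1031 and 1044 TPM in WT 1 to 4, which overlapped. Within it Atp5g1, the least abundant of the 3, averaged 102.5 ± 9.85 TPM in mutants and 99.8 ± 4.61 TPM in WT. The 5 remaining membrane subunits, among them Atp5j2, had a median log2 fold change of -0.15. Atp5j2 averaged 124.7 ± 11.6 TPM in mutants and 138.0 ± 5.12 TPM in WT (limma adjusted p = 0.370). All 4 peripheral stalk subunits were negative, between -0.090 and -0.033.

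Many members were high or low in the same embryos. The median deviation of the 82 members from the WT mean was 0.012, -0.14, -0.017 and -0.098 in mutants 1 to 4, and 0.067, -0.026, -0.026 and -0.010 in WT 1 to 4 on the log2(TPM + 1) scale. Mutants 2 and 4 were low, mutants 1 and 3 lay within the range of WT, and WT 1 was high. WT 1 had the highest value of 49 members (59.8%), against 13% of all genes tested. Mutant 2 had the lowest value of 40 members (48.8%), against 4.81% of all genes, and mutant 4 that of 30 (36.6%), against 25.4% of all genes. Mutants 2 and 4 were the lowest embryos and WT 1 the highest in each complex, with mutant 2 at -0.15, -0.12, -0.14, -0.13 and -0.13 in complexes I to V. With median-ratio scaling the medians were -0.020, -0.18, 0.12 and 0.016 in mutants 1 to 4, and 0.082, -0.062, -0.018 and 0.0032 in WT 1 to 4, so that mutant 2 stayed the lowest and mutant 3 became the highest.

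Subunit genes are short. The merged exons of the 78 members with a length had a median of 1522 bases, against 4308 bases over 13246 genes tested. The 39 members up to that median had a median log2 fold change of -0.051 and the 39 longer ones of -0.074. The 1095 other tested genes no longer than 1522 bases had a median of -0.080, and deviated by 0.011, -0.079, -0.093 and -0.16 in mutants 1 to 4 and by 0.060, -0.018, -0.018 and -0.024 in WT 1 to 4. WT 1 was the highest embryo in these short genes as in the members, but mutant 4 was the lowest in place of mutant 2, and mutant 3, which lay within the WT range over the members, was below it. The part of gene length in the members' values was not tested.

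**Figure D4:**
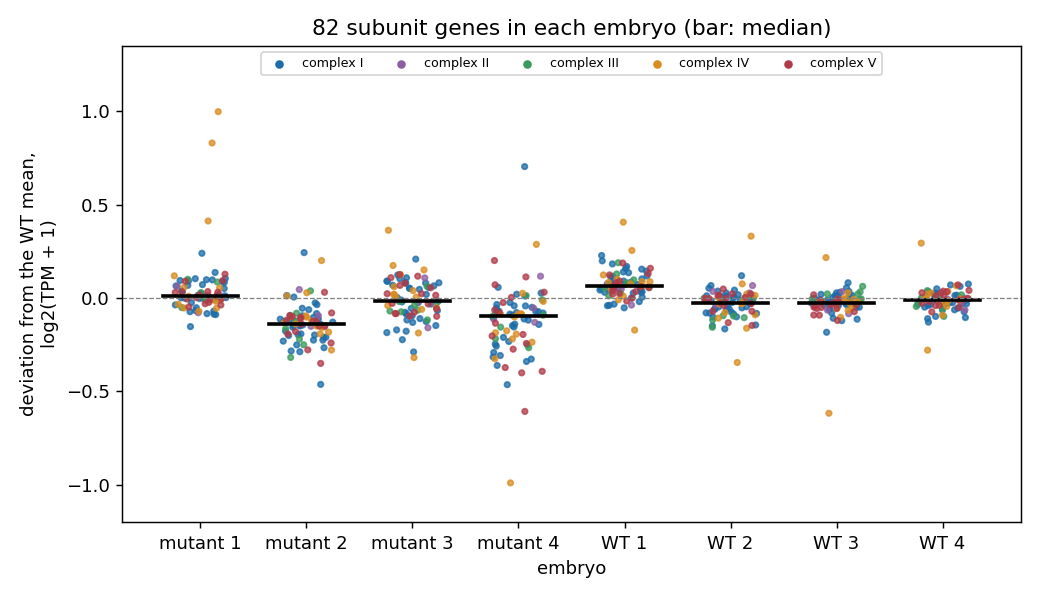
Deviation of each of the 82 genes from its mean in WT on the log2(TPM + 1) scale, by embryo, with 1 point per gene coloured by complex and a bar for the median. The median is -0.14 in mutant 2 and -0.098 in mutant 4, close to 0 in mutants 1 and 3, and 0.067 in WT 1.

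Transcripts of the 2 genomes were compared by summing TPM within each complex. The members together made up 2.03%, 1.83%, 2.01% and 1.87% of TPM in mutants 1 to 4, against 2.11%, 1.98%, 1.98% and 2.00% in WT 1 to 4. The 13 mitochondrially encoded subunits made up 6.08%, 6.58%, 5.84% and 6.33% in mutants 1 to 4, against 5.39%, 5.27%, 4.65% and 4.98% in WT 1 to 4. Of these 13 genes 12 had a positive log2 fold change with a median of 0.288 over the 13, and mt-Nd6 was the exception. Their ratio to the summed members was 3.00, 3.61, 2.90 and 3.39 in mutants 1 to 4, against 2.55, 2.67, 2.36 and 2.49 in WT 1 to 4. The ratios did not overlap between genotypes, and mutants 2 and 4 had both the lowest sums of members and the highest ratios. The sum of members is the divisor of this ratio, so a low sum by itself raises it.

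Nuclear-encoded subunits were summed by symbol prefix. The sum of complex I therefore includes Ndufa4 and Ndufa4l2, that of complex IV lacks them, and that of complex III lacks Cyc1, its cytochrome c1. By complex the ratio of mitochondrially to nuclear-encoded transcripts averaged 2.99 ± 0.399 in mutants and 2.20 ± 0.129 in WT for complex I (SD, n = 4 each). For complex III it averaged 2.01 ± 0.291 in mutants and 1.51 ± 0.138 in WT. Complex IV averaged 5.90 ± 0.557 in mutants and 4.65 ± 0.243 in WT, and complex V averaged 2.23 ± 0.186 in mutants and 1.83 ± 0.0617 in WT. In each of these complexes the lowest mutant was above the highest WT embryo. The summed members overlapped between genotypes in all 5 complexes, for example 5782, 5109, 5714 and 5249 TPM in mutants 1 to 4 for complex I, against 6047, 5568, 5637 and 5649 TPM in WT 1 to 4. TPM is relative: a higher share of the mitochondrially encoded genes lowers all others, and with those genes removed and the libraries rescaled the members' median log2 fold change was -0.042 in place of -0.059.

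**Figure D5:**
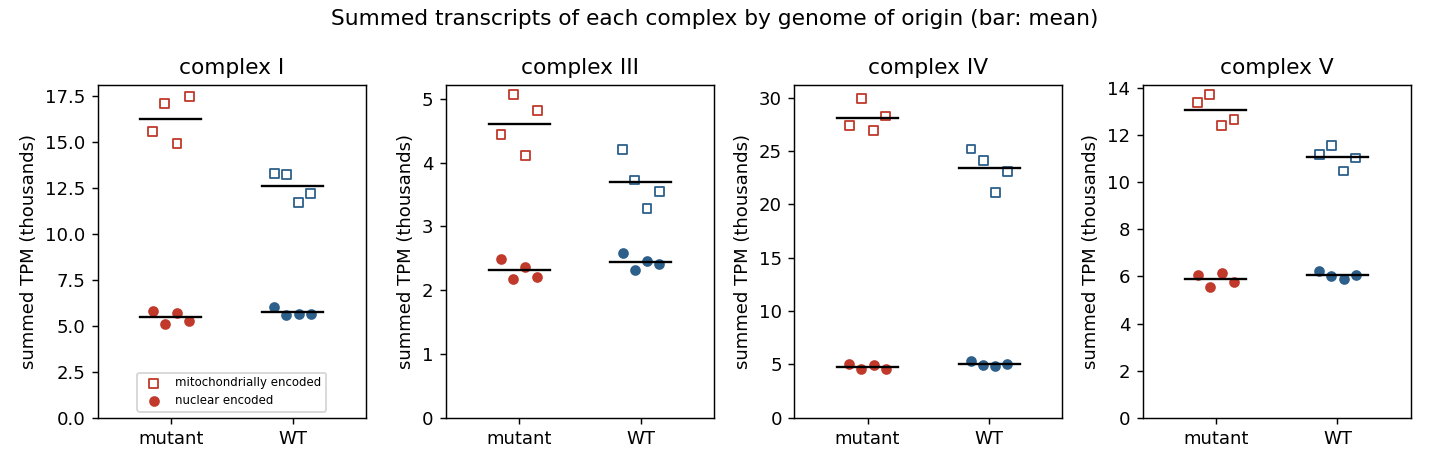
Summed TPM, in units of 1000, of the mitochondrially encoded (open squares) and nuclear-encoded (filled circles) subunits of complexes I, III, IV and V, with 1 point per embryo, mutants left and WT right, and bars for means. The squares are higher in mutants, without overlap in complexes I, IV and V, while the circles overlap in every complex. Circles follow symbol prefixes, so that complex I includes Ndufa4 and Ndufa4l2, and complex III lacks Cyc1.

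Genes that serve the complexes without being members were taken from written lists. Of 51 tested assembly factors 41 (80.4%) were negative, against 62.3% of all genes tested, with a median log2 fold change of -0.066. At an unadjusted p under 0.05, 7 (13.7%) were lower and 1 (1.96%) higher, against 8% and 5.55% of all genes. The adjusted threshold was passed by 0. The lower ones included the complex I factor Ndufaf2, at 27.0 ± 2.34 TPM in mutants and 32.3 ± 1.84 TPM in WT, and the ATP synthase factor Atpaf1, at 31.2 ± 0.799 TPM in mutants and 35.1 ± 1.40 TPM in WT. The higher one was Coa5 of complex IV, at 88.8 ± 6.46 TPM in mutants and 76.7 ± 3.75 TPM in WT (limma adjusted p = 0.284). Among 8 carriers and associated proteins 7 were negative, led by Cyc1, the cytochrome c1 of complex III, whose symbol the choice of members does not cover. Cyc1 averaged 283.7 ± 9.74 TPM in mutants and 317.5 ± 13.98 TPM in WT without overlap, a log2 fold change of -0.16 ± 0.047 (limma adjusted p = 0.283).

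Ubiquinone is the electron carrier between complexes I, II and III, and 11 of 12 tested genes of its synthesis were negative with a median log2 fold change of -0.14, among them Coq3, a methyltransferase, at 12.6 ± 0.904 TPM in mutants and 14.7 ± 0.203 TPM in WT. The 16 enzymes of the citric acid cycle and pyruvate dehydrogenase, which supply the electrons, were evenly divided, with 8 negative and a median of 0.0030. Ogdh averaged 117.6 ± 3.48 TPM in mutants and 107.1 ± 6.23 TPM in WT, and Idh3g averaged 92.1 ± 2.81 TPM in mutants and 99.8 ± 2.67 TPM in WT. Of 19 tested regulators of mitochondrial biogenesis and transcription 12 were negative with a median of -0.0080. Lrpprc, which stabilises mitochondrial mRNAs, averaged 42.5 ± 3.51 TPM in mutants and 37.7 ± 1.41 TPM in WT (limma adjusted p = 0.351). The genes with the next smallest p were lower in mutants. Tefm averaged 31.2 ± 3.92 TPM in mutants and 36.2 ± 2.83 TPM in WT, and Tfb1m averaged 14.6 ± 1.63 TPM in mutants and 16.5 ± 0.764 TPM in WT. Mitochondrial ribosomal protein genes gave 72 of 78 (92.3%) negative with a median of -0.085, and cytosolic ribosomal protein genes 52 of 79 (65.8%) with a median of -0.038. Beside all these lists, 62.3% of all genes tested were negative, with a median of -0.045.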

How the data were processed

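The labels describe RNA-seq of 8 single flash-frozen embryos from TruSeq libraries. The authors deposited TPM values, with 1 row per symbol and 1 column per embryo, and every column matched a sample by name. The genome build is GRCm38 (mm10), per the submitters' processing notes, and the sources used here name no aligner, counting program or strand setting.

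Genotypes were compared with limma (version 3.58.1, under R 4.3.3), fitted to log2(TPM + 1) with a variance trend and no covariate, and p-values were adjusted by Benjamini-Hochberg over 13596 genes. Fold changes on this scale understate those of low genes. Single genes were also tested by two-sided exact permutation over 70 assignments. Members and lists were chosen with earlier results of these data known, so sums and lists carry no p. The rule named, per complex, the member with the highest mean and the 2 of smallest p on each side, all tissue isoforms with their partners, and up to 3 genes per other list. Ndufs1, Ndufs3, Ndufs8, Ndufv1, Ndufv2, Ndufb8, Sdhc, Uqcrfs1, Cox7a2l and Atp5a1 were added after their values were seen, and 1 member is not reported here by name.

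Reads were recovered from TPM with merged exon lengths of GENCODE M21; at least 97.45% of values under 1000 reads per library were whole within 0.02. The fit was also tested on simulated data. Reads shared with pseudogenes or overlapping genes could not be separated. The limma p-values set the difference between genotypes against the spread between these embryos, moderated over all genes. Embryos were taken as independent, though their litters are not known. Alternatives changed the pseudocount, the level filter, the scaling, the weights, the trend or the embryos included, or added the replicate number as a block.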

Additional observations from a re-analysis of the deposited data

Results flagged for a closer look

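Among 90 sets of 4 embryos, 3 had a sample apart from the others by Dixon's gap. For independent, normally distributed sets chance alone gives about 1 in 20, but the sets here share embryos and genes. Summed TPM of complex I members in WT 1 was 6047, against 5568 to 5649 in the other WT embryos. Cox7b2 was at 0.0987 TPM in mutant 1 and at 0.0979 TPM in WT 3, and at 0 in the other embryos. It did not pass the level filter, and where the rest of a group is at 0 any value above 0 is flagged.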

How the results depend on the processing

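No member passed the adjusted threshold under any of the 18 alternatives, and the members' median log2 fold change stayed negative, between -0.083 (without mutant 3) and -0.015 (median-ratio scaling); it was -0.030 without mutant 2. Over all genes 3 were called with mutants 3 and 4 left out, and leave-one-out fits called 0 to 1; at an unadjusted p under 0.05 there were 3511 genes with array weights and 1146 to 3057 in leave-one-out fits. The number of positive members was 19, 33 with median-ratio scaling, 11 with mutants 3 and 4 left out, and 8 (without mutant 3) to 25 in leave-one-out fits. Members lower at an unadjusted p under 0.05 numbered 9, against 0 with median-ratio scaling, 5 with mitochondrially encoded genes removed, 19 with array weights, 2 with no trend, 3 with mutants 3 and 4 left out and, in leave-one-out fits, 1 (without WT 1) to 25 (without mutant 1). Members higher numbered 1, which was Ndufa4l2, against 0 with no filter and with the replicate block, 2 with mutants 3 and 4 left out, and 0 to 1 in leave-one-out fits. The filter of a mean of at least 5 TPM also gave 0, but it removes Ndufa4l2 (mean 3.90 TPM) from the fit. The labels do not tie replicate numbers to litters, and deviations of same-numbered embryos correlated at -0.0618, 0.0398, -0.194 and -0.245. Whether same-numbered embryos share a litter or batch was not tested. With the number as a block 12 members were lower and 0 called. Of 28 named members 22 kept their sign throughout. With mutants 3 and 4 left out, Atp5d (-0.073) and Atp5g1 (-0.066) turned negative, and with median-ratio scaling Atp5b was 0.012. Leave-one-out values ranged from -0.011 to 0.072 for Atp5d (negative without mutant 3 or 4), from -0.021 to 0.088 for Atp5g1 (negative without mutant 4), from -0.021 to 0.094 for Cox7b (negative without mutant 1, mutant 3 or WT 2), from -0.092 to 0.010 for Ndufa2 (positive without mutant 2) and from -0.0010 to 0.091 for Ndufa4 (negative without mutant 3). The cause was not tested. Depth limits only the weakly expressed isoforms, with as few as 65 reads per library.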
